A study of Homo sapiens with 6 samples.

Results

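The MYC-MAX network comprised 10 genes, MYC, MYCN, MYCL, MAX, MXD1, MXD3, MXD4, MXI1, MNT and MLX, chosen by name among the 58825 genes of the expression table. All 10 were found, each had a value above 0 in all 6 libraries, and all 10 passed the filter on low counts, which kept 19393 genes. RNA was sequenced from MHCC97H, a metastatic human hepatocellular carcinoma (HCC) cell line, in 3 libraries labelled shPTBP1 and 3 labelled shControl. The shPTBP1 cells carried a short hairpin RNA (shRNA) against the splicing regulator PTBP1 and were labelled PTBP1 knockdown, and the shControl cells carried a control shRNA and were labelled wild type. Which hairpin each library carried, and whether the libraries of a group came from separate cultures, is not given in the sources used here, so the p-values measure only the spread between these libraries.

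MYC, MYCN and MYCL are transcription factors that bind DNA as heterodimers with MAX, at E-boxes with the core CACGTG, and activate genes of ribosome production, nucleotide synthesis and cell growth. The MXD proteins, MXI1 and MNT compete for MAX, recruit the SIN3-HDAC corepressor and oppose MYC at the same sites. MLX is the partner of the glucose sensors MondoA (MLXIP) and ChREBP (MLXIPL), and in the liver ChREBP drives genes of sugar and fat metabolism. MYC is among the oncogenes most often gained in liver cancer.

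E-box sequences near the start of the members' own genes were looked for, since the network's proteins bind this motif. The motif CACGTG, which reads the same on both strands, was the only motif searched. It was found in 3 of 12 promoters of 9 members. MYC was left out of this count, and whether its promoter holds the motif is not reported here. Promoters were those annotated by RefSeq on GRCh38.p14, from 250 bases before to 50 after each start. Of all 35116 promoters of that length, 7.26% held it. The 3 promoters are shown 5′ to 3′ on the strand of the gene, with the motif in capitals. That of MXD4 is on chromosome 4 (chr4:2262060-2262359, minus strand), with the motif beginning at base -238. That of MNT is on chromosome 17 (chr17:2401011-2401310, minus strand), with the motif at -193, and that of MLX is on the same chromosome (chr17:42566850-42567149, plus strand), with the motif at -50. The match is a description of these letters and not of binding.
MXD4 promoter: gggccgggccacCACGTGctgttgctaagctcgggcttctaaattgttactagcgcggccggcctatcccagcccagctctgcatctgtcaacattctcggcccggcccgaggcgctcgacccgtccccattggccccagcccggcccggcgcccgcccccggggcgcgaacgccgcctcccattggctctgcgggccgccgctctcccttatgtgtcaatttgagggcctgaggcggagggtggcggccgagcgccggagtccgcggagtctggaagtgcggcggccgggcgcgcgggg
MNT promoter: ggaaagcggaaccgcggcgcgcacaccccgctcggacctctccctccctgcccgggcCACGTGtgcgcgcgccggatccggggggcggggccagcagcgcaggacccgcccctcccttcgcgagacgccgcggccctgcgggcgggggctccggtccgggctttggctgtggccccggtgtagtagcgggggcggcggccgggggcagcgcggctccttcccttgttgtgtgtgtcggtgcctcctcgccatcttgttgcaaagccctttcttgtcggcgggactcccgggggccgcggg
MLX promoter: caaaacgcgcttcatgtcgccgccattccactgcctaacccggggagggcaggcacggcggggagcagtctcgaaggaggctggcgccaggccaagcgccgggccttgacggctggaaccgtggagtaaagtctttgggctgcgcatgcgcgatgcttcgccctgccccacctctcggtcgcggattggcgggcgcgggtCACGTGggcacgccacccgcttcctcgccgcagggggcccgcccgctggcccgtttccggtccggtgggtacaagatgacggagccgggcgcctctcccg

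The libraries were checked before the network was examined. The deposited counts summed to between 68704509 and 85317970 per library. PTBP1 itself was at 17.3, 16.9 and 18.0 FPKM (fragments per kilobase per 1e6 fragments) in shPTBP1 1, 2 and 3, against 21.2, 16.4 and 27.4 FPKM in shControl 1, 2 and 3. Its log2 fold change was -0.29 with a standard error of 0.18 (adjusted p = 0.953, edgeR quasi-likelihood test), and it was -0.099 without shControl 3, -0.45 (adjusted p = 0.998) without shControl 2 and -0.13 among libraries numbered 1 and 2 only, so each direction reported here refers to the labels only. PTBP2, which PTBP1 is known to repress through splicing, was at 3.80, 4.06 and 3.21 FPKM in shPTBP1 against 2.01, 1.88 and 0.61 FPKM in shControl. Of 13 hepatocyte markers, 5 (ALB, AFP, APOB, TTR and FGB) were at 0 in all 6 libraries, while the keratins KRT8 and KRT18 each had between 301 and 435 CPM (counts per 1e6 after TMM scaling). Summed CPM of 10 red cell markers was 849, 759 and 1.15 in shPTBP1 and 1279, 800 and 1.32 in shControl, and that of 10 neutrophil and monocyte markers was 22.7, 20.7 and 0.222 in shPTBP1 and 35.6, 22.6 and 0.17 in shControl. These sums separate the libraries numbered 3 from those numbered 1 and 2 in both groups. The sums of 10 lymphocyte markers were 40.8, 34.9 and 40.6 CPM in shPTBP1 and 9.35, 8.54 and 48.8 CPM in shControl. Most of this was CCL5, at 33.1, 31.0 and 36.3 CPM in shPTBP1 and 3.92, 2.28 and 47.1 CPM in shControl. The median FPKM of the 10 was 0.11, 0.125 and 0 in shPTBP1 and 0.125, 0.15 and 0 in shControl. The sums of 5 fibroblast markers were 459, 446 and 345 CPM in shPTBP1 and 260, 296 and 308 CPM in shControl, with COL1A2 at 0 in all 6. Their median FPKM was 0.06, 0.02 and 0.06 in shPTBP1 and 0, 0.02 and 0.05 in shControl, so these sums rested on a few of the 5.

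The question put to the network was whether any of its transcripts differed with PTBP1 knockdown, and no member passed the adjusted threshold between the libraries labelled shPTBP1 and shControl. With edgeR's quasi-likelihood test, 0 of 10 members reached an adjusted p under 0.05, and 6 of all 19393 genes did (0.0309%). At an unadjusted p under 0.05, 1 member passed, MXD4, where 5.69% of all genes did. The shPTBP1 and shControl libraries did not overlap in 1 member, again MXD4, and in 11.9% of all genes. Across the members the log2 fold changes ran from -0.66 (MYC) to 0.99 (MXD1) with a median of -0.03, against a median of -0.01 over all genes tested. DESeq2 and the other 14 alternative settings also gave 0 members past the adjusted threshold, with a smallest adjusted p of 0.281.

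Ordered by the median FPKM of the 6 libraries, a level per length, MLX (20.4) came first and was followed by MYC (18.5), MXD4 (7.83), MAX (7.79), MXI1 (6.51), MXD3 (5.63), MNT (3.30), MXD1 (1.70), MYCN (0.205) and MYCL (0.140). Ranges of neighbours in this order overlapped, except that MXD3 was above MNT in all 6 libraries without overlap. Thus MAX, the obligate partner of MYC, was at about the level of each of MXD4, MXI1 and MXD3, while the paralogs MYCN and MYCL were below 0.6 FPKM in every library. The highest library was 1.22-fold above the lowest for MXD3, 1.24-fold for MLX and 1.34-fold for MAX, but 32.5-fold for MYC.

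**Figure D1:**
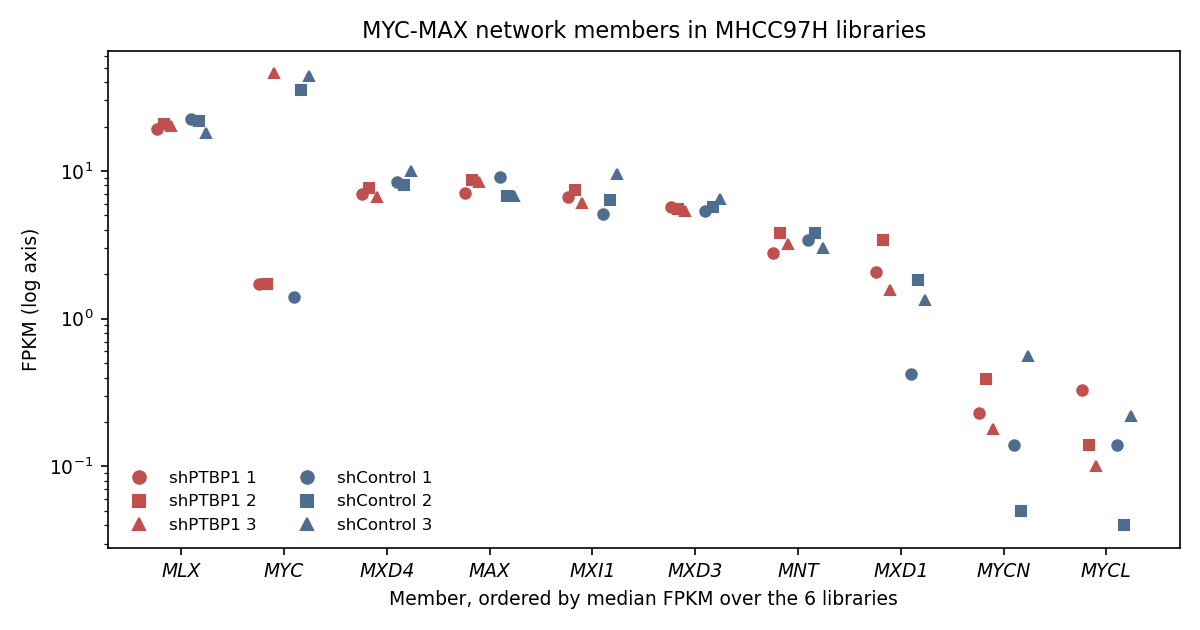
FPKM of the 10 network members (log axis) in the 6 libraries, shPTBP1 (red) to the left of shControl (blue) for each gene, with the marker shape giving the library number. MYC was between 1.41 and 1.73 FPKM in 3 libraries and between 35.2 and 45.8 FPKM in the other 3, which mix both labels, while MLX, MXD4, MAX and MXD3 each lay within a narrow range.

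MYC stood at 2 levels that cut across the labels. MYC (ENSG00000136997, chromosome 8 of hg38 from 127735434 to 127742950) had 1.71, 1.73 and 45.8 FPKM in shPTBP1 1, 2 and 3, against 1.41, 35.2 and 44.1 FPKM in shControl 1, 2 and 3. It was therefore low in shPTBP1 1, shPTBP1 2 and shControl 1 and high in shPTBP1 3, shControl 2 and shControl 3, with both levels in each group. The estimated counts behind these values were 751, 739 and 18372 in shPTBP1 and 532, 16445 and 16556 in shControl, so the low level rested on at least 532 counts. In CPM the lowest of the high libraries (190) was 20.0-fold above the highest of the low ones (9.51). Within the groups, the highest library was 26.9-fold above the lowest in shPTBP1 and 30.1-fold in shControl. In bulk RNA, fewer cells that express MYC and less MYC RNA per cell cannot be told apart. Whether the 2 levels in the deposited values reflect either of these was not tested.

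The comparison of the groups is accordingly imprecise for MYC. Its log2 fold change in shPTBP1 over shControl was -0.66 with a standard error of 1.49 (unadjusted p = 0.672, adjusted p = 0.991, edgeR), on means of 91.4 ± 142 CPM in shPTBP1 and 144 ± 120 CPM in shControl (SD, n = 3 each). The value depended on single libraries. Without shPTBP1 3 it was -3.92 (unadjusted p = 0.0261, adjusted p = 0.900, edgeR), and among libraries numbered 1 and 2 only it was -3.38 (unadjusted p = 0.0633, adjusted p = 0.309). Without shPTBP1 1, shPTBP1 2 or shControl 3 it was -0.13, -0.12 and -0.12. The adjusted p of MYC was between 0.309 and 1.000 over the 15 alternatives.

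The spread of MYC was large for a gene of its level. Its standard deviation of log2 CPM within the groups was 2.70, against a median of 0.163 over the 4473 genes with a mean of at least 50 CPM, and it ranked 5 among these. The ratio of count to FPKM of MYC, centred on each library's median, varied by 0.0118 on the log2 scale, so the deposited counts and FPKM carry the same 2 levels. No gene of the table overlaps MYC. PVT1, the long noncoding RNA gene downstream of MYC that is often co-amplified with it, had 19.4, 25.1 and 26.0 CPM in shPTBP1 and 31.9, 28.8 and 22.8 CPM in shControl, without 2 levels. The red cell and myeloid marker sums also had 2 levels, but they set shPTBP1 3 and shControl 3 apart from the other 4 libraries, and shControl 2, high in both MYC and red cell markers, was on the side of shPTBP1 1, shPTBP1 2 and shControl 1 for the markers only.

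MYC was not alone in this behaviour. By a rule chosen after the data were seen (at least 2 libraries at each level, a gap of at least 4-fold and at most 2.5-fold within a level, on CPM + 0.5), 62 of the 19393 genes stood at 2 levels, in 23 different arrangements of the libraries, and 2 of the 62, CRIP1 and NXPH4, were arranged exactly by label. The gap of MYC ranked 6 among the 62. Its own arrangement was shared by 2 others: CHAMP1, a chromosome alignment factor, in the same direction (5.27, 6.33 and 44.8 CPM in shPTBP1 and 6.35, 46.2 and 33.9 CPM in shControl), and TGOLN2, a trans-Golgi protein, in the opposite one (188, 196 and 24.3 CPM in shPTBP1 and 166, 32.2 and 26.6 CPM in shControl). Other genes had other arrangements, and some of these, such as DAG1, followed the library number in both groups. The dystroglycan gene DAG1 had 420, 436 and 12.6 CPM in shPTBP1 and 450, 462 and 14.0 CPM in shControl, and LRP11 had 102, 3.08 and 80.6 CPM in shPTBP1 and 4.59, 70.9 and 78.0 CPM in shControl.

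For 1 pair of overlapping annotations the values were complementary. ERCC5, a DNA repair endonuclease, had 17.3, 22.3 and 77.1 CPM in shPTBP1 and 18.2, 80.4 and 70.0 CPM in shControl, high and low in the same libraries as MYC. The read-through annotation BIVM-ERCC5, which contains it, had 64.1, 58.4 and 0 CPM in shPTBP1 and 63.6, 0 and 12.2 CPM in shControl, and the sum of both lay between 77.1 and 82.2 CPM in all 6 libraries. ERCC5 was singled out after its values were seen. For MYC no second gene name at its position could be summed in this way, and the source of its 2 levels was not tested.

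**Figure D2:**
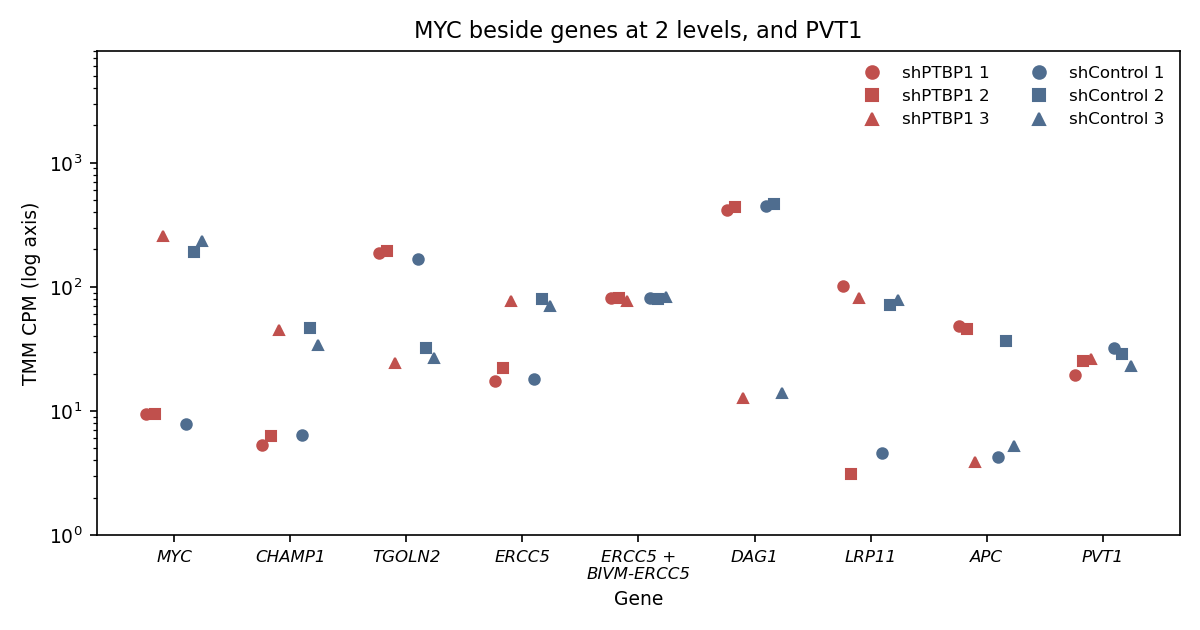
TMM CPM (log axis) of MYC, of 6 genes chosen after their values were seen, of the sum of ERCC5 and BIVM-ERCC5, and of PVT1 in the 6 libraries, shPTBP1 (red) left of shControl (blue), with the marker shape giving the library number. CHAMP1 and ERCC5 were high where MYC was high, TGOLN2 was low there, DAG1, LRP11 and APC had other arrangements, and the sum of ERCC5 and BIVM-ERCC5 was level at 77.1 to 82.2 CPM.

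The paralogs MYCN and MYCL, which take the place of MYC in neural and some endocrine tumours, were at low levels. MYCN had 0.23, 0.39 and 0.18 FPKM in shPTBP1 against 0.14, 0.05 and 0.56 FPKM in shControl, and its log2 fold change was 0.15 with a standard error of 0.82. This turned to -0.22, -0.13 and -0.34 without shPTBP1 2, shControl 1 and shControl 2, and was 0.25 without shPTBP1 1, 0.36 without shPTBP1 3, 1.54 without shControl 3 and 1.75 among libraries numbered 1 and 2 only, the last with the smallest adjusted p of any member (unadjusted p = 0.0496, adjusted p = 0.281, edgeR). MYCL had 0.33, 0.14 and 0.10 FPKM in shPTBP1 against 0.14, 0.04 and 0.22 FPKM in shControl, with a log2 fold change of 0.51 and a standard error of 0.68, -0.17 without shPTBP1 1, 0.091 without shControl 2, 0.82 without shPTBP1 3 and 1.04 without shControl 3. The highest MYCN value was in shControl 3, where MYC was high, and the highest MYCL value was in shPTBP1 1, where MYC was low. The groups overlapped in both genes.

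MAX varied little. MAX had 7.12, 8.70 and 8.45 FPKM in shPTBP1 against 9.05, 6.75 and 6.79 FPKM in shControl, and the groups overlapped (log2 fold change 0.13, standard error 0.16, adjusted p = 0.980, edgeR). Its highest and lowest libraries were both shControl, and the fold change was 0.30 without shControl 1, 0.21 without shPTBP1 1, 0.081 without shPTBP1 2, 0.054 without shControl 2, 0.049 without shControl 3 and 0.0078 among libraries numbered 1 and 2 only. MAX (ENSG00000125952, chromosome 14 from 65006174 to 65102695) overlaps FNTB on the opposite strand over 56477 bases. FNTB had between 3.76 and 5.31 FPKM, and since counting by strand is not stated, reads of the 2 genes cannot be fully told apart.

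The ratio of MYC to MAX differed widely between libraries of 1 label. MYC was 0.240, 0.199 and 5.42 times MAX in shPTBP1 1, 2 and 3, against 0.156, 5.21 and 6.49 times MAX in shControl 1, 2 and 3, in FPKM. Against the summed FPKM of the MAX-binding repressors MXD1, MXD3, MXD4, MXI1 and MNT, MYC was at 0.0706, 0.0621 and 2.00 in shPTBP1 and at 0.0620, 1.37 and 1.45 in shControl. The repressors together were the more abundant side in 3 libraries and MYC in the other 3. That repressor sum itself was 24.2, 27.8 and 22.9 FPKM in shPTBP1 and 22.7, 25.7 and 30.4 FPKM in shControl. MYC made up 3.24%, 2.91% and 47.0% of the summed FPKM of the 10 members in shPTBP1, and 2.52%, 39.3% and 44.0% in shControl.

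Among the repressors, MXD4 came nearest to a difference between the groups. MXD4 (ENSG00000123933, chromosome 4 from 2247432 to 2262109), which is known for its expression in differentiating and resting cells, had 7.03, 7.64 and 6.63 FPKM in shPTBP1 against 8.44, 8.01 and 9.98 FPKM in shControl. Every shPTBP1 library was below every shControl library. The log2 fold change was -0.28 with a standard error of 0.12 (unadjusted p = 0.0446, adjusted p = 0.870, edgeR), which does not pass the adjusted threshold. It was negative under all 15 alternatives, from -0.16 to -0.35, with an unadjusted p between 0.0357 and 0.181, and was smallest in size among libraries numbered 1 and 2 only. MXD4 is 1 of the 3 members with an E-box in the promoter printed above, and the other 2, MNT and MLX, had log2 fold changes of -0.04 and -0.03.

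MXD1, the member first described in terminal differentiation of blood and skin cells, had the largest positive fold change. It was at 2.06, 3.39 and 1.57 FPKM in shPTBP1 against 0.42, 1.83 and 1.33 FPKM in shControl. The groups overlapped, with shPTBP1 3 below shControl 2, and the low value of shControl 1 stood apart from the other 5. The log2 fold change was 0.99 with a standard error of 0.52 (unadjusted p = 0.0958, adjusted p = 0.933, edgeR) and 0.59 without shControl 1, 0.64 without shPTBP1 2, and it was 1.28 among libraries numbered 1 and 2 only. MXD1 (chromosome 2 from 69897688 to 69942942) overlaps the splicing gene SNRNP27 on the same strand over 7549 bases, which had between 11.8 and 13.9 FPKM, several times the level of MXD1, so reads of the shared stretch are uncertain.

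The other repressors overlapped between the groups. MXD3, associated with the S phase of the cell cycle, had 5.69, 5.57 and 5.38 FPKM in shPTBP1 against 5.33, 5.70 and 6.51 FPKM in shControl. MXI1, also called MXD2 and induced in hypoxia, had 6.65, 7.44 and 6.09 FPKM in shPTBP1 against 5.14, 6.37 and 9.60 FPKM in shControl, with shControl holding both the lowest and the highest library. MNT, the most widely expressed MAX-binding repressor, had 2.80, 3.80 and 3.2 FPKM in shPTBP1 against 3.40, 3.83 and 3.00 FPKM in shControl. Log2 fold changes of MXD3, MXI1 and MNT were -0.05 (standard error 0.12), -0.03 (0.22) and -0.04 (0.16). MXD3 shares sequence with RAB24 on the same strand and with PRELID1 on the opposite one, and PRELID1 had between 48.1 and 85.2 FPKM, so part of the reads given to MXD3 are uncertain.

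MLX, the partner of the glucose sensors, was the member with the highest median. It had 19.1, 20.8 and 20.1 FPKM in shPTBP1 against 22.4, 21.7 and 18.1 FPKM in shControl, and the shPTBP1 values lay within the shControl range (log2 fold change -0.03, standard error 0.12). Of its partners, MondoA (MLXIP) had 2.2, 2.35 and 2.59 FPKM in shPTBP1 against 2.67, 2.84 and 2.24 FPKM in shControl. ChREBP (MLXIPL), the form typical of the liver, had 0.21, 0.21 and 0.07 FPKM in shPTBP1 against 0.09, 0.04 and 0.24 FPKM in shControl, so that MLXIP was at least several times higher than MLXIPL in every library. MGA, a large repressor that also binds MAX, had 4.91, 6.0 and 5.04 FPKM in shPTBP1 against 6.15, 7.14 and 5.12 FPKM in shControl. Log2 fold changes were -0.09 for MLXIP (standard error 0.14), 0.41 for MLXIPL (0.71) and -0.18 for MGA (0.15), and none passed the threshold.

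**Figure D3:**
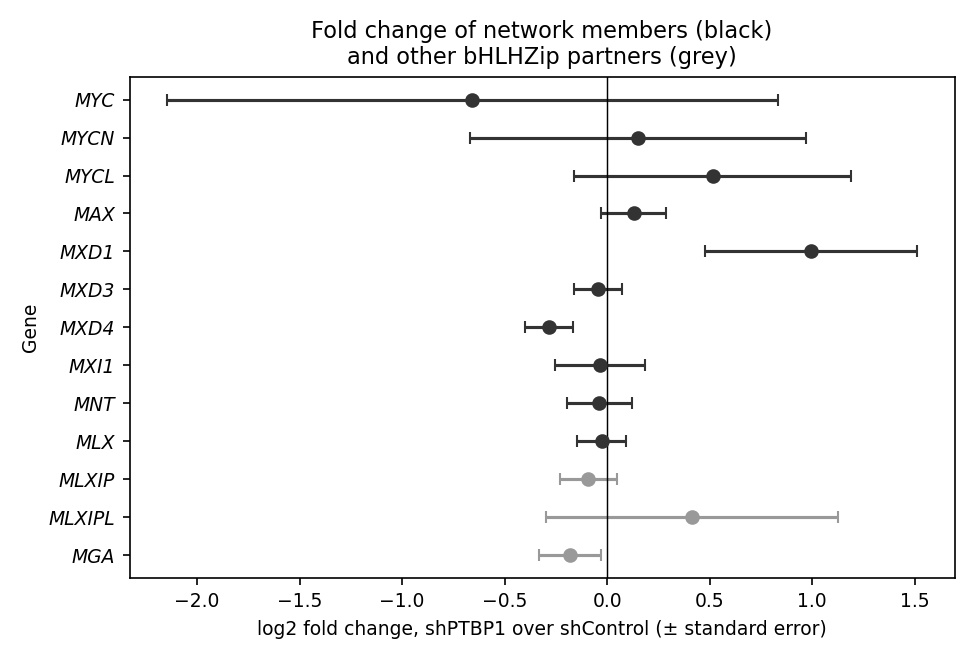
Log2 fold change in shPTBP1 over shControl (x axis) with its standard error from edgeR, for the 10 members (black) and 3 other partners of MAX or MLX (grey), 1 gene per row. The bars of MYC (standard error 1.49), MYCN (0.82) and MYCL (0.68) are the widest among the members, and among the members the bars of MXD4 (-0.28) and MXD1 (0.99) do not reach 0, although neither passed the adjusted threshold.

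Genes that act with, upon or downstream of the network were examined in 6 lists of 146 genes, of which 140 were tested, and edgeR placed 0 of them past the adjusted threshold. Of the 140, 5 had an unadjusted p under 0.05, a smaller share than the 5.69% of all genes, with 3 among the genes activated by MYC and 2 among the 10 repressed by MYC. DESeq2 called 1 of the list genes, CDKN1A. Median log2 fold changes were -0.06 for partners and cofactors (22 genes tested), -0.06 for regulators of MYC protein stability (25), -0.03 for regulators of MYC mRNA (14), -0.14 for genes activated by MYC (63), 0.26 for genes repressed by MYC (10) and 0.07 for glucose-response targets of MLX (6), beside -0.01 over all genes tested. Most of these medians depended on single libraries. With 1 library left out, they ran from -0.11 to -0.0045 for partners and cofactors (-0.0045 without shControl 1 and -0.11 without shControl 3), from -0.12 (without shControl 3) to -0.05 for protein stability, and from 0.14 (without shControl 2) to 0.36 for genes repressed by MYC. The median of the regulators of MYC mRNA turned to 0.058 without shControl 1 and 0.013 without shPTBP1 3, and was -0.096 without shControl 3, -0.092 without shPTBP1 1 and -0.078 without shPTBP1 2. That of the MLX targets was 0.011 without shControl 1, 0.013 without shPTBP1 2, 0.037 without shControl 2, 0.19 without shPTBP1 3 and 0.22 without shControl 3.

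Genes of the proteins that MYC and the MXD repressors recruit differed little between the libraries. In the list of partners and cofactors, log2 fold changes lay between -0.18 and 0.19, 0 of 22 had an unadjusted p under 0.05, and 1, the acetyltransferase KAT5 (7.77, 7.17 and 7.32 FPKM in shPTBP1 against 7.99, 8.01 and 9.02 FPKM in shControl), did not overlap, beside 5.69% and 11.9% of all genes. The genes with the smallest p-values were EP400, the ATPase of the KAT5 complex (-0.18, standard error 0.14), the corepressor SIN3B (-0.18, standard error 0.14) and CCNT1, the cyclin of the elongation factor P-TEFb (0.19, standard error 0.15). The ATPases RUVBL1 and RUVBL2 had between 23.2 and 29.5 FPKM and between 35.2 and 39.8 FPKM over all 6 libraries. WDR5, which anchors MYC on chromatin, had 18.8, 18.5 and 21.7 FPKM in shPTBP1 against 25.7, 24.4 and 17.4 FPKM in shControl.

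Regulators of MYC protein stability had log2 fold changes between -0.41 and 0.16, with 6 positive and 19 negative, and 0 of 25 had an unadjusted p under 0.05. FBXW7, the ubiquitin ligase subunit that degrades phosphorylated MYC, had 1.22, 1.18 and 1.11 FPKM in shPTBP1 against 1.43, 1.32 and 1.54 FPKM in shControl. The groups did not overlap, with a log2 fold change of -0.26 (unadjusted p = 0.0886, adjusted p = 0.933, edgeR). The kinase gene GSK3A, whose product marks MYC for FBXW7, had 11.2, 11.3 and 11.6 FPKM in shPTBP1 against 18.1, 16.6 and 11.4 FPKM in shControl (log2 fold change -0.41, unadjusted p = 0.0575, adjusted p = 0.895, edgeR). SET, an inhibitor of the phosphatase PP2A, differed by -0.18 on the log2 scale (standard error 0.15).

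A few of these regulators varied within the groups as well. AURKA, a kinase that shields MYCN from FBXW7, had 34.9, 28.4 and 57.1 FPKM in shPTBP1 and 63.4, 25.0 and 56.8 FPKM in shControl. FBXO28, a ubiquitin ligase subunit reported to act on MYC, had 10.97, 4.66 and 11.5 FPKM in shPTBP1 and 14.3, 5.79 and 12.7 FPKM in shControl, low in the libraries numbered 2. TRIM32, a ubiquitin ligase, had 11.5, 10.7 and 1.74 FPKM in shPTBP1 and 8.75, 6.42 and 7.06 FPKM in shControl, with shPTBP1 3 alone at a low level. None of the 3 was low and high in the same libraries as MYC, and all 3 were singled out after their values were seen.

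Regulators of MYC transcription and mRNA, of which CCAT1 was not in the table, had log2 fold changes between -0.24 and 0.34. HNRNPK, CNBP and FUBP1, which bind the far upstream or promoter elements of MYC, had log2 fold changes of 0.03, -0.19 and 0.08. The largest values among the genes named by p-value were those of ZFP36, which promotes decay of AU-rich mRNAs (3.29, 3.34 and 2.41 FPKM in shPTBP1 against 2.05, 2.16 and 3.08 FPKM in shControl), and FUBP3 (15.9, 17.0 and 12.5 FPKM in shPTBP1 against 12.9, 14.4 and 11.2 FPKM in shControl). Their log2 fold changes were 0.34 (standard error 0.23) and 0.26 (standard error 0.15). IGF2BP1, which stabilizes the MYC mRNA, had 4.80, 4.94 and 4.26 FPKM in shPTBP1 against 4.41, 4.54 and 3.35 FPKM in shControl (log2 fold change 0.21, standard error 0.15), and the log2 fold change of PVT1 was -0.24 (standard error 0.18). ZFP36L1 was low in shPTBP1 3 alone, with 8.51, 7.29 and 1.43 FPKM in shPTBP1 and 5.39, 4.82 and 6.34 FPKM in shControl.

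**Figure D4:**
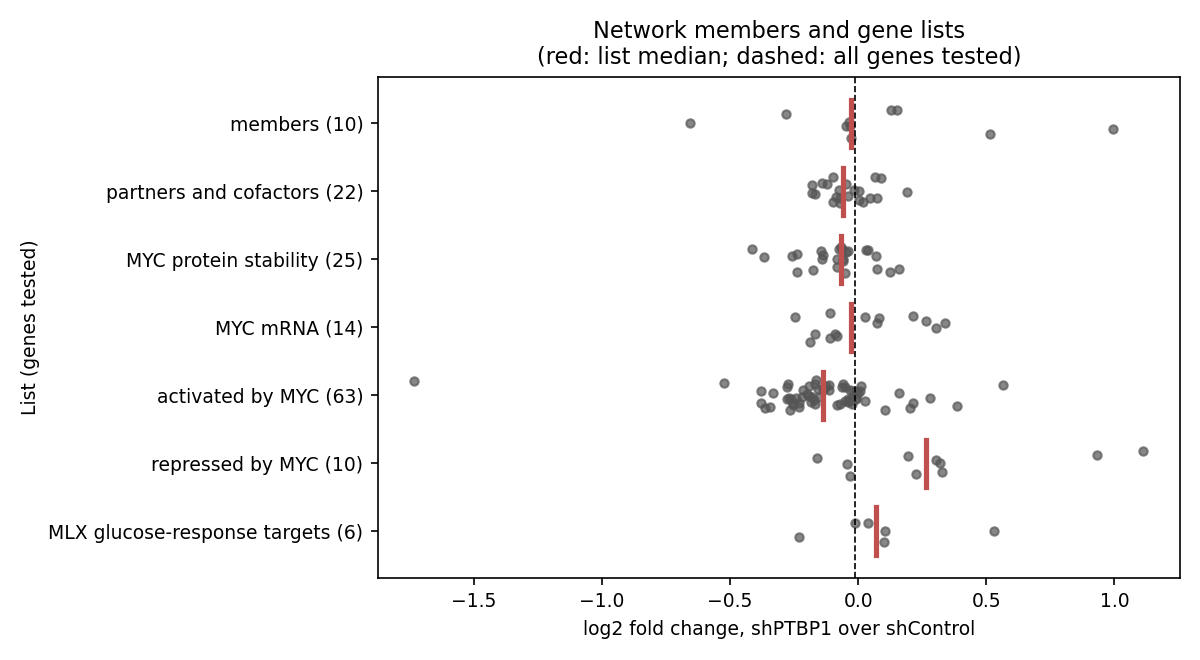
Log2 fold change in shPTBP1 over shControl (x axis) of each tested gene of the network and of 6 lists (rows, with the number of genes tested), with the list median in red and the median of all genes tested (-0.01) dashed. The genes activated by MYC centred at -0.14 and those repressed by MYC at 0.26. CDKN1C (1.11), a gene repressed by MYC, lay farthest to the right, and the member MXD1 (0.99) lay to the right of CDKN1A (0.93).

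None of the genes activated by MYC passed the adjusted threshold in edgeR. Of 63 tested, 11 had a positive and 52 a negative log2 fold change, beside 9304 positive and 10089 negative over all genes tested, and 3 had an unadjusted p under 0.05 (4.76%, against 5.69% of all genes). The median of the list, -0.14, was -0.04 without shControl 1, -0.06 without shControl 2, -0.23 without shControl 3 and -0.30 among libraries numbered 1 and 2 only. EXOSC5, a subunit of the RNA exosome, had 12.7, 12.5 and 15.4 FPKM in shPTBP1 against 21.0, 20.5 and 18.0 FPKM in shControl (log2 fold change -0.52, standard error 0.15, unadjusted p = 0.00973, adjusted p = 0.640, edgeR). RABEPK had 6.05, 5.70 and 6.45 FPKM in shPTBP1 against 8.99, 7.97 and 7.12 FPKM in shControl (-0.38, standard error 0.14, unadjusted p = 0.0342, adjusted p = 0.850). The third was TERT, the telomerase reverse transcriptase, named after its values were seen, at 0.04, 0.06 and 0.05 FPKM in shPTBP1 against 0.10, 0.21 and 0.20 FPKM in shControl, levels too low for a firm statement. These 3 and GNL3, a nucleolar GTPase at 56.9, 56.3 and 58.8 FPKM in shPTBP1 against 62.3, 70.1 and 64.9 FPKM in shControl, were the 4 of 63 that did not overlap, beside 11.9% of all genes.

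Among the other genes activated by MYC, the mitochondrial transcription factor TFB2M and the nucleolar phosphoprotein NOLC1 had log2 fold changes of -0.33 (standard error 0.15) and -0.27 (standard error 0.14). The classical nucleolar targets NPM1, NCL and FBL had log2 fold changes of -0.13, -0.02 and -0.18, ornithine decarboxylase ODC1 had -0.34, the cell cycle kinase CDK4 had 0.00 and lactate dehydrogenase LDHA had 0.16. ODC1 had 49.0, 53.7 and 59.4 FPKM in shPTBP1 against 84.9, 76.9 and 47.4 FPKM in shControl, with shControl 3 the lowest library of all. This shape, with high values in shControl 1 and 2 and a low one in shControl 3, was also seen in NCL (107, 111 and 123 FPKM in shPTBP1 against 138, 131 and 84.3 FPKM in shControl).

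The order of the libraries by MYC differed from their order by the sum of these targets. Summed over the 64 genes, CPM was 11870, 12869 and 13159 in shPTBP1 1, 2 and 3, against 14527, 13834 and 11101 in shControl 1, 2 and 3. The highest sum was in shControl 1, the library with the lowest MYC, and the lowest sum was in shControl 3, where MYC was high. The means of the sum were 12632 ± 676 CPM in shPTBP1 and 13154 ± 1811 CPM in shControl (SD, n = 3 each), which is within the spread of shControl. The lowest library depended on the measure. The median FPKM of the list was 15.2, 16.5 and 17.3 in shPTBP1 and 19.8, 18.8 and 16.6 in shControl. By that median shControl 1 was again highest, but shPTBP1 1, where MYC was low, was lowest. E-boxes of the same sequence were in 39.1% of the 69 promoters found for 52 genes of this list, against 7.26% of all promoters. The genes were listed as activated by MYC, which binds this motif, so the higher share may follow from that choice.

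Genes repressed by MYC included the smallest p-value of the 6 lists. CDKN1A, which encodes the CDK inhibitor p21, had 64.6, 63.6 and 63.5 FPKM in shPTBP1 against 30.9, 30.8 and 40.8 FPKM in shControl, with no overlap. Beside it, the fibroblast marker sums were likewise higher in each shPTBP1 library. The median FPKM of these markers was at most 0.06 in every library, so the sums rested on a few of them. The part of these sums in the result for CDKN1A was not tested. Its log2 fold change was 0.93 with a standard error of 0.13 (unadjusted p = 1.44e-04, adjusted p = 0.140, edgeR), short of the adjusted threshold, which it passed in DESeq2 (adjusted p = 2.6e-05), without shControl 3 (adjusted p = 0.0178) and among libraries numbered 1 and 2 only (adjusted p = 0.0426). Over the other alternatives it did not pass, with an adjusted p of up to 0.594. Over the 3 shPTBP1 libraries CDKN1A was nearly constant, and MYC was low in 2 of them and high in the third. A relation between CDKN1A and MYC was not tested. CDKN1C, encoding p57, had 1.27, 1.26 and 0.67 FPKM in shPTBP1 against 0.43, 0.34 and 0.73 FPKM in shControl (log2 fold change 1.11, standard error 0.38, unadjusted p = 0.0220, adjusted p = 0.778, edgeR), with shPTBP1 3 inside the shControl range. CDKN1B (p27) and CDKN2B (p15) had log2 fold changes of 0.30 (standard error 0.14) and 0.19 (standard error 0.16). The stress genes GADD45A and NDRG1 had -0.16 and -0.03.

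Targets of MLX with MondoA or ChREBP were only partly expressed. Of 10, the liver genes PKLR and G6PC were among 3 at 0 in all 6 libraries, FGF21 failed the filter, and 6 were tested, of which 0 had an unadjusted p under 0.05. TXNIP, an inhibitor of glucose uptake and the best known MondoA target, had 166, 99.0 and 64.4 FPKM in shPTBP1 against 24.3, 36.7 and 174 FPKM in shControl. The shPTBP1 libraries lay between the extremes of shControl, and the log2 fold change was 0.53 with a standard error of 0.72 (unadjusted p = 0.488, adjusted p = 0.982, edgeR). The value depended on single libraries: it was 0.10 without shPTBP1 1, 0.10 without shControl 1, 0.19 without shControl 2, 0.79 without shPTBP1 3, 1.87 without shControl 3 (unadjusted p = 0.00471, adjusted p = 0.128, edgeR) and 2.13 among libraries numbered 1 and 2 only (unadjusted p = 0.00147, adjusted p = 0.0979). Its paralog ARRDC4, another MondoA target, had 1.07, 0.83 and 0.45 FPKM in shPTBP1 against 0.46, 0.55 and 1.34 FPKM in shControl, again with shControl 3 highest and shPTBP1 1 next. KHK, fructokinase, had 2.52, 2.74 and 2.86 FPKM in shPTBP1 against 3.28, 3.21 and 3.23 FPKM in shControl, without overlap (log2 fold change -0.23, standard error 0.14), and the log2 fold changes of PPP1R3B, a glycogen-targeting phosphatase subunit, and TKFC, triokinase, were 0.11 and 0.10. In shControl 3, where TXNIP was highest, MLX was at its lowest.

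**Figure D5:**
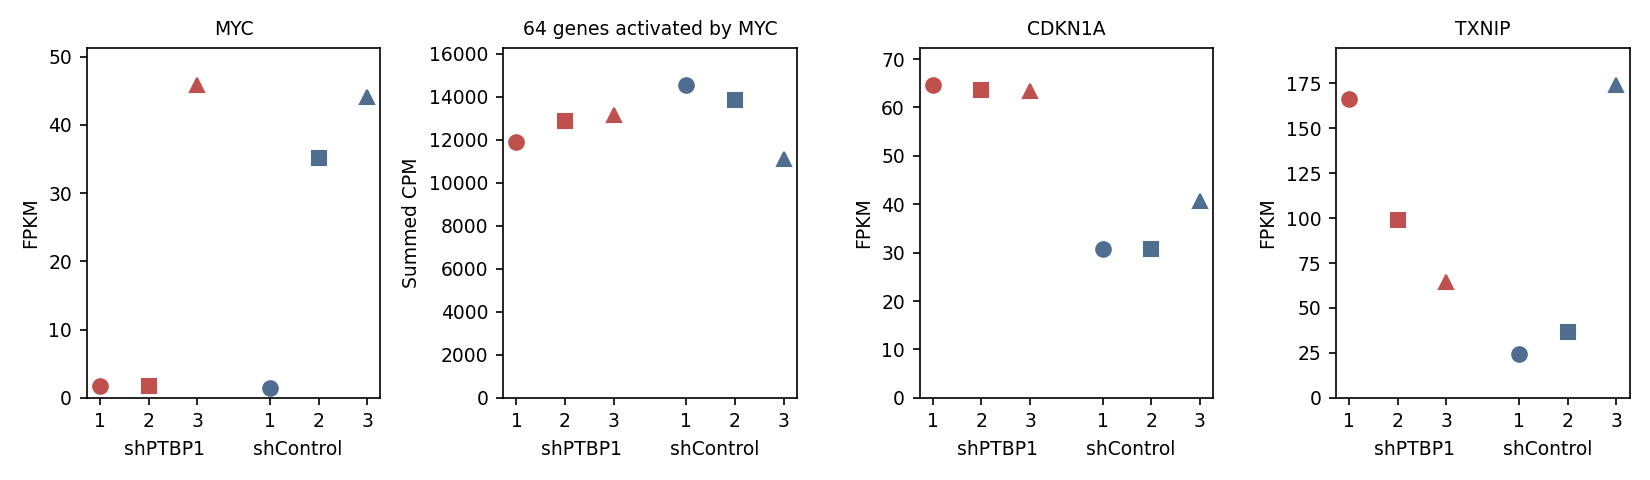
Levels in each library, shPTBP1 1 to 3 (red) left of shControl 1 to 3 (blue), of MYC (FPKM), of the sum of 64 genes activated by MYC (CPM), of CDKN1A (FPKM) and of TXNIP (FPKM), all on axes from 0. MYC had 2 levels in each group, the target sum was highest in shControl 1 (14527) and lowest in shControl 3 (11101), CDKN1A was higher in each shPTBP1 library (63.5 to 64.6) than in any shControl library (30.8 to 40.8), and TXNIP ranged from 24.3 to 174 within shControl.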

How the data were processed

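The authors sequenced poly(A) RNA of 6 MHCC97H libraries and deposited 1 table of 58825 genes on hg38 with FPKM and estimated counts per library. The submitters' processing notes name HISAT2 2.2.1, StringTie, cutadapt 1.9 and FastQC, without settings. The deposited counts are whole numbers, but 32.5% to 34.4% of those from 1 to 40 are multiples of 4, so they were treated as estimated counts and depth in fragments is not known. The library kit marks strand with dUTP, and counting by strand is not stated. FPKM as deposited by the authors gave levels per length.

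The main test was the quasi-likelihood F test of edgeR 4.0.16 in R 4.3.3, after filterByExpr and TMM scaling, for shPTBP1 over shControl, without covariates, with Benjamini-Hochberg adjustment over all 19393 genes tested at a threshold of 0.05. The standard error is the absolute log2 fold change divided by the square root of F. Alternatives, 15 in all, used DESeq2 1.42.0, other scaling, no filter, limma 3.58.1 on log2(FPKM + 1) or log2(FPKM + 0.1), a replicate block, libraries numbered 1 and 2 only, number 3 as a covariate, and each library left out. The edgeR and limma steps were tested on simulated data. Tables and figures were made with matplotlib 3.10.9, scipy 1.17.1, numpy 2.4.6 and pandas 2.3.3 in Python 3.11.15. Named genes were PTBP1, PTBP2, the members, MLXIP, MLXIPL, MGA and, per list, up to 4 genes with the smallest p-values and a mean of at least 1 FPKM in the higher group. Further genes were named from the lists for their known role or after their values were seen. The members and lists were chosen with earlier results of these data known. Some genes of the lists are not reported here by name.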

Additional observations from a re-analysis of the deposited data

How the results depend on the processing

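Genes past the adjusted threshold over the whole table numbered 6 in edgeR, 168 in DESeq2, 3 with limma without a filter, 63 among libraries numbered 1 and 2 only, 3 with number 3 as a covariate, and between 2 and 136 with 1 library left out, 136 being without shControl 3. Network members past it numbered 0 under all 15 alternatives. Members with an unadjusted p under 0.05 numbered 1 in edgeR, 0 with limma without a filter and with the number 3 covariate, and between 0 and 2 with 1 library left out (2 without shControl 2, and 0 without shPTBP1 1, shPTBP1 2 or shControl 1). The member changed with the setting: it was MXD4 in edgeR, with RLE factors, without the filter and in limma with its filter, MXD1 in DESeq2 and with the replicate block, MYCN among libraries numbered 1 and 2 only and without shControl 3, MYC without shPTBP1 3, and MXD4 and MXD1 without shControl 2. List genes past the adjusted threshold numbered 0 in edgeR, and 1, CDKN1A, in DESeq2, among libraries numbered 1 and 2 only, and without shControl 3 (range with 1 library left out 0 to 1). Its log2 fold change was 0.93, 1.06 and 1.07 there.

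Of 146 fold changes of members under the alternatives (limma with its filter leaves out MYCN and MYCL), 130 had the sign of the main test and 16 did not, none of them past the adjusted threshold and none larger than 0.34 on the log2 scale. Among libraries numbered 1 and 2 only, MXD3 was at 0.039 and MXI1 at 0.30, and with number 3 as a covariate MXI1 was at 0.0065. With 1 library left out, the genes that turned sign ranged from -0.34 to 1.54 (MYCN), -0.17 to 1.04 (MYCL), -0.099 to 0.025 (MXD3), -0.21 to 0.24 (MXI1), -0.15 to 0.061 (MNT), -0.13 to 0.044 (MLX), -0.012 to 1.30 (MLXIPL), -0.053 to 0.18 (PPP1R3B) and -0.092 to 0.37 (TKFC). The cause of these shifts was not tested.

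With a replicate block, 0 genes passed the adjusted threshold, MXI1 was at 0.0100, MYC at -1.06 and MXD4 at -0.28. Over all genes tested, deviations of libraries with the same number correlated at -0.06, 0.12 and 0.02 for numbers 1, 2 and 3. The numbers were therefore not taken to pair the libraries in the main test. Some genes at 2 levels were nevertheless split by number in both groups. DAG1, RHOQ and HBB were low in the libraries numbered 3, and BCL2L2 and MMP1 in those numbered 2. Whether libraries of the same number shared a step was not tested. With 3 libraries per group, and members such as MYCN and MYCL under 0.6 FPKM, a difference of the size of the standard errors given could not be detected.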
